A study of Mus musculus with 6 samples.

Results

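The circadian clock genes are 10 genes fixed by name: the activators Arntl and Clock, the repressors Per1, Per2, Per3 and Cry1, the nuclear receptors Nr1d1 and Nr1d2, and the output factors Dbp and Nfil3. Of these 10, 9 had a row among the 28888 named genes of the expression table, under their current symbols, and Nfil3 was not analysed here. They were measured in LT-HSC, the long-term haematopoietic stem cells that can rebuild the blood for life, sorted from mouse bone marrow. There were 3 arrays of LT-HSC taken 2 days after sex steroid ablation (SSA), a surgery that takes away the source of sex hormones, and 3 control arrays of LT-HSC taken 2 days after a sham operation. All donors were 2 month old males of one strain, written C56 Bl/6 in the labels, with no transgene or drug named. Neither the sorting gate, the pooling of animals nor the hour of collection is given in the sources used here, and no label ties a replicate to its own animal. The p-values therefore cover the spread between arrays, part of which may be technical.

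The mammalian clock is a feedback loop of transcription. ARNTL (also called BMAL1) and CLOCK pair up and bind E-boxes in the promoters of the Per, Cry, Nr1d and Dbp genes. PER and CRY proteins then block that pair, NR1D1 and NR1D2 (the REV-ERB receptors) repress Arntl through a DNA element called RORE, and DBP and NFIL3 compete as activator and repressor at D-boxes. In bone marrow the loop is known for daily rhythms in the release of stem cells into blood. A clock gene's level in sorted cells may also depend on the hour at which they were taken, which was not tested.

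None of the clock genes passed the test for a difference between SSA and sham. The clearest value was Dbp, which stood 1.31-fold higher in SSA, and Nr1d1 and Nr1d2 stood on the same side by 1.26-fold and 1.3-fold. Per1 and Per3 stood on the other side, at 0.704 and 0.765 of the sham level. Arntl, Clock and Per2 differed by less than their standard errors or by little more, and Cry1 was at background. The test was limma across all genes with Benjamini-Hochberg adjustment, and the lowest adjusted p of a clock gene was 0.564, for Dbp. In the same limma fit 1 gene of 10821 passed an adjusted p of 0.05, Ear6, an eosinophil ribonuclease, at an adjusted p of 0.0303, which is 0.00924% of genes.

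Levels are normalised log2 intensities. A gene was kept for the main fit when its detection p was under 0.05 on at least 3 of the 6 arrays, which left 10821 genes and 5 clock genes, Arntl, Per1, Per2, Per3 and Dbp. Clock, Cry1, Nr1d1 and Nr1d2 were not kept, and their values come from a fit of all 28888 genes without a filter. Of the kept clock genes 1 of 5 had an unadjusted p under 0.05, where 8.46% of all kept genes had one. Without a filter it was 2 of 9, against 7.12% of all genes. The median log2 fold change, SSA minus sham, was -0.07 for the 5 kept clock genes and 0.01 for all kept genes, and without a filter it was 0.03 for the 9 clock genes and 0.0013 for all genes.

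**Figure D1:**
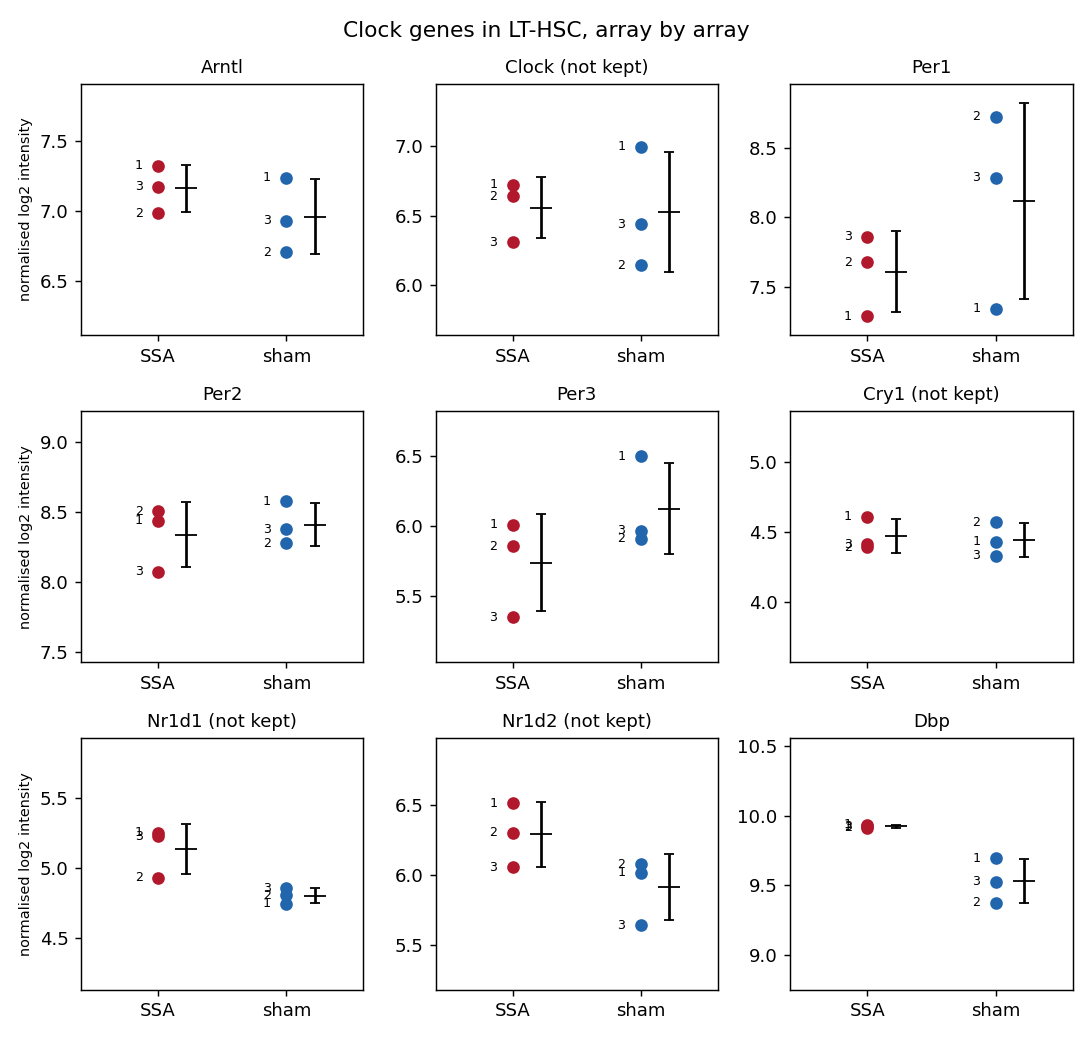
Normalised log2 intensity of the 9 measured clock genes on each array, SSA in red and sham in blue, with replicate numbers beside the points and the mean and SD of 3 arrays as black bars. Every panel spans the same number of log2 units. Dbp and Nr1d1 are the panels in which every SSA point lies above every sham point, and Per1 has the widest sham group.

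The promoters of 9 of the 10 genes (all but Per2), 13 in all, were found in RefSeq (GRCm38.p6), each from 250 bases before to 50 after a transcription start. Both strands were searched for the E-box CACGTG, the related E-prime box CACGTT, the D-box TTANGTAA, the RORE core TAGGTCA, the cyclic AMP element CRE, TGACGTCA, and the glucocorticoid response element GRE in its palindromic form. One example of each clock element is shown, because the loop acts through these elements. The Per1 promoter at chr11:69098699-69098998 (plus strand) carried an E-box from base -166, the Nr1d1 promoter at chr11:98775328-98775627 (minus strand) an E-prime box from base -28, the Per3 promoter at chr4:151044616-151044915 (minus strand) a D-box from base -205 and another from base -158, and an Arntl promoter at chr7:113207261-113207560 (plus strand) a RORE core from base 31 past the start. Capitals mark these motifs, each sequence runs 5′ to 3′ on the gene's strand, and AACGTG is the E-prime box read on the opposite strand.
Per1: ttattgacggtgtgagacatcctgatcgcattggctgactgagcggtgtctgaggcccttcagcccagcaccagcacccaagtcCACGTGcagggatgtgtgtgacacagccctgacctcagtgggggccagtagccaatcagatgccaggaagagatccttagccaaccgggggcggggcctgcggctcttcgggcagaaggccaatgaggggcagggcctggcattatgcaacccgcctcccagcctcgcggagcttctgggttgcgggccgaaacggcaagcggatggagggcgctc
Nr1d1: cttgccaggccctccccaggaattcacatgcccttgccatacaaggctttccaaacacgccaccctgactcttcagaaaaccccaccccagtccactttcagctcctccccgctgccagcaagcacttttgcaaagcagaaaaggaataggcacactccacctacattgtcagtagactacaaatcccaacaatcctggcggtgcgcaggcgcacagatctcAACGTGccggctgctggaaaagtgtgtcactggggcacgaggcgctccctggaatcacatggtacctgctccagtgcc
Per3: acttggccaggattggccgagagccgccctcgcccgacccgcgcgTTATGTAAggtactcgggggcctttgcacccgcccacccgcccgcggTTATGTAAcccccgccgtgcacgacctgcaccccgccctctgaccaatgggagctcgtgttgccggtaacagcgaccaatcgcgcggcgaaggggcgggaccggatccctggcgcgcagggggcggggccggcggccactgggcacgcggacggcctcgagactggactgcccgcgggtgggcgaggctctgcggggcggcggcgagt
Arntl: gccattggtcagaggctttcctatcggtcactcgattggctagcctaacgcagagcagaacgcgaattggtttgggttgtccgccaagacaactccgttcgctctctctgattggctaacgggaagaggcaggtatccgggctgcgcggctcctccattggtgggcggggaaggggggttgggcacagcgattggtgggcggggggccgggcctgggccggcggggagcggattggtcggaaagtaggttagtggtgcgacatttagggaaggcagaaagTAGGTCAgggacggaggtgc

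Of all 32851 promoters of that length, 7.15% held the E-box, 4.68% the E-prime box, 2.32% the D-box, 2.61% the RORE core, 1.79% the CRE and 0.475% the GRE. Of the 13 clock gene promoters, 2 held an E-box, 2 an E-prime box, 1 the D-box, 2 the RORE core, and none the CRE or the GRE. Cry1 held both an E-box, from base -60, and an E-prime box, from base -79, and the other RORE core was that of Nfil3. Dbp and Nr1d2 had none of these letters in the window, which says nothing about elements elsewhere in those genes. No motif overlapped another one.

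The activators came first in the loop. Arntl encodes the partner that CLOCK needs to bind DNA. Its raw signals were 264.6, 258.6 and 244.5 in SSA, against 270.8, 196.3 and 276.5 in sham, over a background of 126.1 to 137.7. After normalisation it stood at 7.32, 6.98 and 7.17 in SSA against 7.24, 6.70 and 6.93 in sham. The groups overlapped, with sham 1 above SSA 2 and SSA 3. The log2 fold change was 0.20 ± 0.18 (SE), with an adjusted p of 0.748 in limma.

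Clock encodes the other part of the activator, a bHLH factor. Its normalised values were 6.72, 6.64 and 6.31 in SSA and 6.99, 6.15 and 6.44 in sham. The sham arrays spanned the whole SSA range, and the log2 fold change was 0.03 ± 0.23 (SE), with an adjusted p of 0.986 in limma without a filter. By the detection score Clock was detected on 1 of 3 SSA arrays and on no sham array. Its raw signals, from 167.9 to 247.4, nevertheless lay more than 3 background SD above the background mean on at least 3 arrays, and with a filter on signal in place of the score it was kept, at an adjusted p of 0.975.

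Per1, a repressor that also responds to acute stimuli in many cell types, varied most among the clock genes. Raw signals of Per1 were 261.9, 344.1 and 323.9 in SSA, against 283.5, 466.6 and 525.3 in sham. Normalised, it stood at 7.29, 7.68 and 7.86 in SSA and 7.35, 8.72 and 8.28 in sham. Sham 2 and sham 3 lay above every other array, whereas sham 1 lay among the SSA arrays next to SSA 1, so the groups overlapped. The mean was 7.61 ± 0.29 in SSA and 8.12 ± 0.70 in sham (SD, n = 3 each), a log2 fold change of -0.51 ± 0.34 (SE) with an adjusted p of 0.666 in limma. Without sham 1 its log2 fold change was -0.90, with an unadjusted p of 0.00539 and an adjusted p of 0.157 in limma. In that fit 1756 of 10355 genes had an unadjusted p under 0.05. Without sham 2 the log2 fold change of Per1 was -0.20, with an unadjusted p of 0.516 in limma. Without sham 3 it was -0.42, with an unadjusted p of 0.330 in limma.

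A further row, named PER, carries an older symbol that Per1 shares with Hspg2, the gene of the matrix protein perlecan, so it cannot be assigned. This row had raw signals of 122.4, 139 and 129.2 in SSA, against 130.3, 151.7 and 160.4 in sham. It was detected on sham 2 and sham 3, the arrays on which the row PER1 was highest, and on none of the others. Its signals lay close to the background means of 126.1 to 137.7, and the row was not read as Per1.

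Immediate-early genes, switched on quickly by stimuli and by the handling of tissue, differed between the same arrays. All 13 kept members of a list of 20 stood lower in SSA, 9 of them at an unadjusted p under 0.05, where 3.72% of all kept genes were lower at that level, and none passed an adjusted p of 0.05 in limma. Their median log2 fold change was -2.05, against 0.01 for all kept genes. The list's median, relative to each gene's mean over the 6 arrays, was -1.58, 0.39 and -1.94 in SSA, against -0.59, 1.70 and 2.23 in sham. The summed signal of all 20 above background ran from 4967 to 21040 in SSA, against from 10847 to 70994 in sham. By the score Junb, Ier5, Nr4a1 and Btg2 were detected on no array, although the raw signal of Junb ran from 210.9 to 304.3 in SSA, against from 248.9 to 1594.1 in sham. Per1 and this list were both highest on sham 2 and sham 3, but SSA 3 had the highest Per1 of its group and the lowest list median of all arrays. The part of these genes in the Per1 value was not tested.

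**Figure D2:**
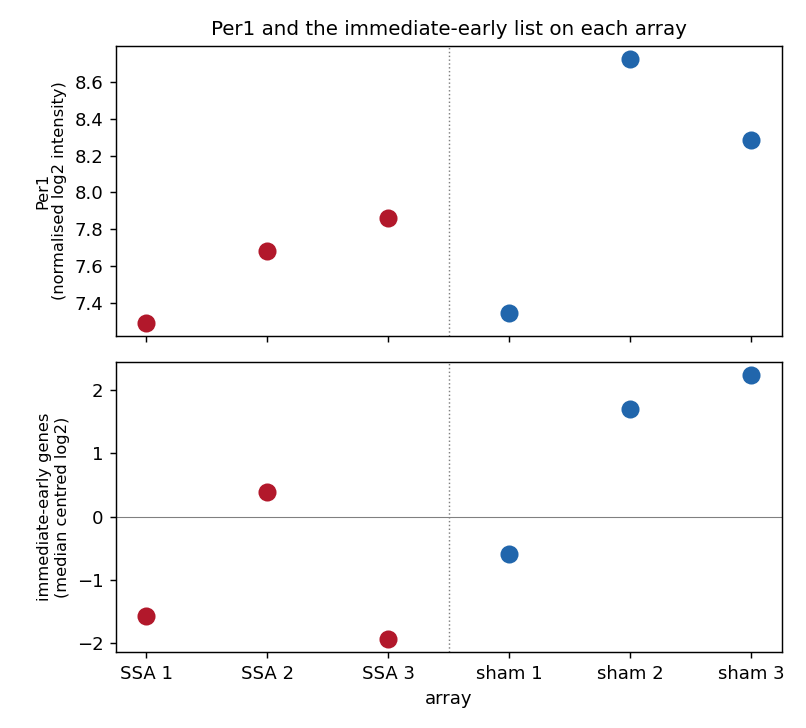
Per1 in normalised log2 intensity (top) and the median of 13 kept immediate-early genes, centred on each gene's mean over 6 arrays (bottom), on each array, SSA in red on the left and sham in blue on the right. Sham 2 and sham 3 are highest in both panels, and SSA 3 stands at 7.86 for Per1 but at -1.94 for the list.

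The kept genes nearest to Per1, by Euclidean distance between centred log2 values over 6 arrays, were Yrdc at 0.106, Cluh at 0.156, Ubqln4 at 0.163, Cfl1 at 0.239 and Larp1 at 0.248. They shared its order of arrays at the top, with sham 2 highest and sham 3 next. Such likeness follows from picking genes by distance over these same arrays. Yrdc, for example, stood at 7.56, 7.94 and 8.14 in SSA and 7.60, 8.92 and 8.44 in sham.

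Per2 encodes the repressor closest to PER1 in function. Its values were 8.44, 8.50 and 8.07 in SSA and 8.57, 8.27 and 8.38 in sham, and its detection p was under 0.05 on 2 of 3 arrays in each group. The groups overlapped throughout. The log2 fold change was -0.07 ± 0.17 (SE), with an adjusted p of 0.920 in limma, and it turned to 0.06 without SSA 3 and to 0.01 without sham 1.

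Per3, the least essential of the repressors for the rhythm in mice, stood at 6.01, 5.86 and 5.35 in SSA and 6.50, 5.91 and 5.97 in sham. SSA 3 was the lowest array and sham 1 the highest, while SSA 1 and SSA 2 lay close to sham 2 and sham 3. Raw signals of Per3 were 178.5, 182.4 and 154.2 in SSA, against 209.8, 159.5 and 198.7 in sham. The log2 fold change was -0.39 ± 0.23 (SE) with an adjusted p of 0.640 in limma. Without SSA 3 it was -0.19, and without sham 1 it was -0.20.

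Cry1, which encodes the strongest repressor of the activator pair, was at background. Its raw signals were 137.9, 131.8 and 128.9 in SSA, against 127.4, 129.6 and 129 in sham, all within 10 units of the background mean. It was detected on no array of either group, so no fold is given.

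The nuclear receptors closed the second loop. Nr1d1 encodes REV-ERB alpha, which represses Arntl and links the clock to metabolism. Its raw signals were 154.4, 150.7 and 151.2 in SSA, against 139.1, 135.1 and 151.5 in sham. Normalised, it stood at 5.25, 4.93 and 5.23 in SSA and 4.74, 4.80 and 4.85 in sham, so that every SSA array lay above every sham array after normalisation, though the raw signal of sham 3 exceeded that of SSA 2 and SSA 3. Without a filter 6.46% of all genes had every SSA array above every sham array. The log2 fold change was 0.34 ± 0.11 (SE), with an unadjusted p of 0.0190 and an adjusted p of 0.640 in limma without a filter. Nr1d1 was detected on SSA 1 and SSA 3 and on no sham array. Its signal lay 8.95 to 21.7 units above background, and its log2 fold change was 0.16 with an offset of 50 and 0.02 with the background fit of neqc.

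Nr1d2 encodes REV-ERB beta, a receptor with largely shared targets. It stood at 6.51, 6.30 and 6.06 in SSA and 6.02, 6.08 and 5.64 in sham, from raw signals of 202.9, 205.6 and 177.3 in SSA, against 183.6, 165.3 and 181.1 in sham. SSA 1 and SSA 2 lay above all sham arrays, and SSA 3 lay between sham 1 and sham 2. The log2 fold change was 0.38 ± 0.16 (SE), with an adjusted p of 0.698 in limma without a filter and 0.582 with the filter on signal. By the score it was detected on SSA 2 alone, and with the background fit of neqc its log2 fold change was 0.04.

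Dbp, a PAR bZIP activator that is a direct output of the ARNTL and CLOCK pair, had the lowest adjusted p of the clock genes. Its raw signals were 1004.5, 1180.6 and 998.9 in SSA, against 946.4, 666.9 and 1077.9 in sham, and in these raw values sham 3 lay above SSA 1 and SSA 3. After quantile normalisation the SSA arrays stood at 9.94, 9.91 and 9.92 and the sham arrays at 9.69, 9.38 and 9.53. Every SSA array then lay above every sham array, as for 8.47% of all kept genes, and no other kept clock gene had groups that did not overlap. The mean was 9.92 ± 0.012 in SSA and 9.53 ± 0.16 in sham (SD, n = 3 each). The log2 fold change was 0.39 ± 0.14 (SE), with an unadjusted p of 0.0267 and an adjusted p of 0.564 in limma. With a median shift per array in place of quantile normalisation it was 0.31 ± 0.24 (SE), and the groups overlapped. Without sham 2, the lowest array, it was 0.31, with an unadjusted p of 0.0722 in limma. The unadjusted p in limma was also above 0.05 without SSA 1 (0.07527), SSA 2 (0.06337), SSA 3 (0.05275) or sham 3 (0.06631). Only without sham 1 did it stay under 0.05, at 0.01725 in limma.

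**Figure D3:**
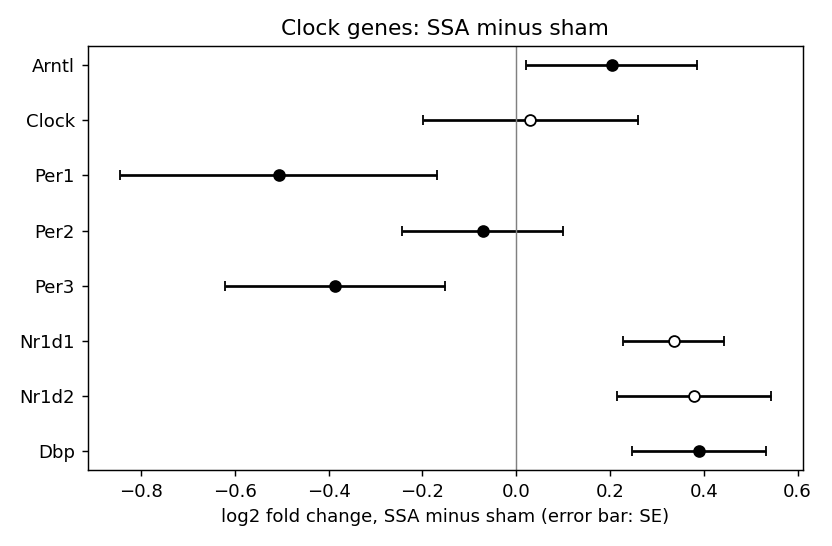
Log2 fold change, SSA minus sham, of 8 clock genes, with the standard error from limma as bars. Filled points are genes kept by the detection filter and open points are genes from the fit without a filter, and Cry1, at background in both groups, is left out. Dbp, Nr1d1 and Nr1d2 stand at 0.39, 0.34 and 0.38, and Per1 and Per3 at -0.51 and -0.39. None passed an adjusted p of 0.05.

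The beads that read Dbp on one array gave its signal a standard error of 2.6% to 4.46% of the signal, from 30 to 51 beads. After quantile normalisation the SSA arrays differed from each other by less than that bead error on the log2 scale, with an SD of 0.012. Their raw signals ran from 998.9 to 1180.6, a wider spread than that error. Among the kept genes nearest to Dbp by distance were Zfp623 at 0.0969, Grina at 0.103, Bhlhb9 at 0.113 and Camkmt at 0.119. Each stood higher in SSA by 0.36 to 0.43 on the log2 scale, with sham 2 lowest, which again follows from how they were picked.

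The spread between arrays of a group set Per1 apart from Dbp. The pooled SD within groups was 0.54 for Per1, which is larger than in 94.8% of kept genes, and 0.11 for Dbp, which is larger than in 10.9%. Clock and Per3 had SDs of 0.34 and 0.34, at the 78.5 and 77.7 percentile of kept genes, Nr1d2, Arntl and Per2 had 0.23, 0.22 and 0.20, and Nr1d1 and Cry1 0.13 and 0.12. The median over all kept genes was 0.23, and over the 5 kept clock genes it was 0.22. Without a filter it was 0.22 over the 9 clock genes, against 0.15 over all genes. The offset added before the log narrows the SDs of genes close to background, such as Nr1d1 and Cry1.

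**Figure D4:**
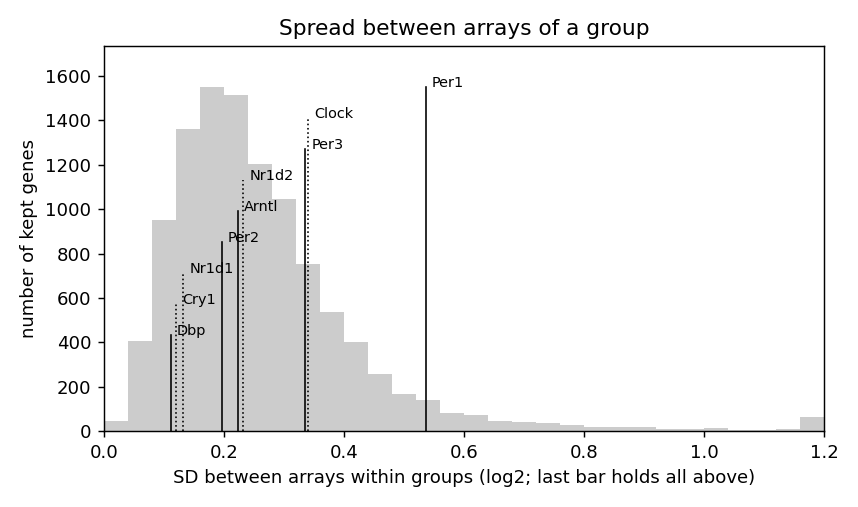
Number of kept genes (vertical axis) by the pooled SD between arrays within groups in log2 units (horizontal axis). Vertical lines mark the clock genes, solid where the gene was kept and dotted where it was not. Per1 lies in the upper tail at 0.54 and Dbp at the low end at 0.11.

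The median centred log2 value of the 6 genes known as targets of E-boxes and D-boxes (Per1, Per2, Per3, Dbp, Nr1d1 and Nr1d2) was 0.14, 0.05 and -0.02 in SSA, against -0.06, -0.06 and -0.06 in sham. Within these 6 genes Dbp and the Nr1d genes stood higher in SSA, while Per1 and Per3 stood lower. For the 3 measured genes grouped as RORE targets (Arntl, Clock and Cry1, the last at background) the median was 0.18, -0.07 and -0.05 in SSA. In sham it was 0.18, -0.36 and -0.13. The grouping was made by known roles and not by the motif matches above. Cry1 was placed with the RORE genes although the Cry genes are also bound at E-boxes, as stated above. In the window searched its promoter held an E-box and no RORE core.

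Among the partners of the loop, 7 of 11 listed genes were kept. None passed an adjusted p of 0.05 in limma. Bhlhe40 encodes DEC1, a repressor that competes for E-boxes, and it stood at 8.14, 7.98 and 8.23 in SSA and 7.73, 6.61 and 7.52 in sham. Every SSA array lay above every sham array, as for 8.47% of all kept genes, and sham 2 was far below the rest. Its log2 fold change was 0.83 ± 0.28 (SE), with an adjusted p of 0.564 in limma. It was 0.49 without sham 2 and 0.27 with the background fit of neqc.

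Cry2, the paralog of Cry1, stood at 5.14, 4.95 and 5.41 in SSA and 5.52, 6.14 and 5.87 in sham. All SSA arrays lay below all sham arrays, as for 6.09% of kept genes. Cry2 was detected on the 3 sham arrays and on no SSA array, so it passed the filter through sham alone. Cry2 had a log2 fold change of -0.68 ± 0.20 (SE), with an adjusted p of 0.564 in limma. It was -0.39 with an offset of 50 and -0.05 with the background fit of neqc. The raw signals of Cry2 were 151.7, 151.3 and 155.8 in SSA, against 163.1, 167.7 and 193.2 in sham.

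Of the other partners Rora, Rorb, Ciart and Tipin were kept, with log2 fold changes of -0.03, -0.23, -0.05 and -0.30. Npas2, which can stand in for Clock, was not kept, and neither were Timeless, Arntl2 and Bhlhe41. By the score Timeless was detected on 2 arrays, although its raw signal ran from 324.8 to 481.2 in SSA, against from 367.1 to 561.5 in sham.

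Of 20 listed enzymes that modify clock proteins, 13 were kept, 4 higher and 9 lower in SSA. None of the 13 had an unadjusted p under 0.05 in limma, where 8.46% of all kept genes had one. Their median log2 fold change was -0.03, against 0.01 for all kept genes. Csnk1d and Csnk1e encode casein kinases that mark PER proteins for decay, and they stood at -0.17 ± 0.14 and 0.18 ± 0.26 (SE). The remaining kept members lay between -0.23 for Cul4a and 0.63 for Csnk2a1.

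Of 14 listed outputs of the clock, 11 were kept, 8 higher and 3 lower in SSA, and their median log2 fold change was 0.15, against 0.01 for all kept genes. Por alone had an unadjusted p under 0.05, where 8.46% of all kept genes had one and 4.73% had one and were higher. It encodes the reductase that supplies cytochrome P450 enzymes, and stood at 9.79, 9.56 and 9.68 in SSA and 9.39, 9.12 and 9.31 in sham. After normalisation the groups of Por did not overlap, with SSA above sham as for 8.47% of all kept genes. In raw signal sham 3, at 949.1, lay above SSA 1 and SSA 3, at 923.3 and 855.1. The log2 fold change of Por was 0.41 ± 0.15 (SE), with an adjusted p of 0.564 in limma. Nampt, the enzyme of NAD salvage, stood at 0.31 ± 0.15 without overlap, and Klf9, also a glucocorticoid target, at 0.50 ± 0.24 with sham 1 among the SSA arrays (SE). Their adjusted p in limma were 0.596 and 0.592, and with the background fit of neqc Nampt stood at 0.03. The raw signal of Nampt was highest on sham 3, at 214.3. With a median shift per array the groups overlapped for Por and for Nampt, at log2 fold changes of 0.31 and 0.23. Tef and Hlf, the PAR bZIP relatives of Dbp, stood at 0.05 ± 0.18 and 0.14 ± 0.18. The glucocorticoid targets Tsc22d3 and Fkbp5 stood at -0.06 and -0.14.

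**Figure D5:**
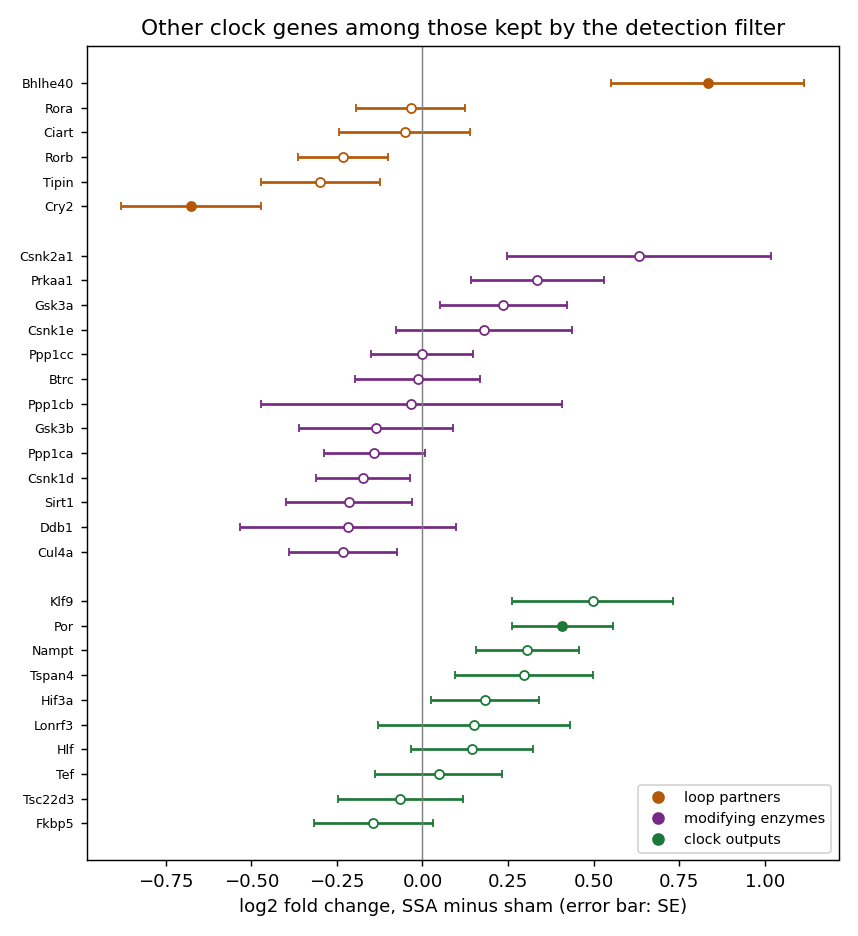
Log2 fold change, SSA minus sham, with standard errors, of 6 kept loop partners (top, orange), enzymes that modify clock proteins (middle, purple) and clock outputs (bottom, green). Filled points have an unadjusted p under 0.05, which holds for Bhlhe40, Cry2 and Por. Ciart is in both the first and the last list and is drawn once.

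The arrays as a whole differed in ways that touch these values. Median raw signals lay between 132.3 and 145.3, each row was read by a median of 44 beads, and 35.8% to 37.7% of rows were detected. Sham 2 stood farthest out on the first principal component, at 41.6, where the other arrays lay between -24.1 and 9.69. After normalisation sham 2 had the lowest Dbp, Arntl, Clock and Bhlhe40 and the highest Per1 and Cry2 of all arrays. In raw signal sham 3 had the highest Per1 and Cry2, at 525.3 and 193.2. The headers number the arrays with every SSA number before every sham number, and if that order reflects batches they cannot be told apart from SSA.

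Of 13 LT-HSC markers 11 were kept, and by the score Procr and Robo4 were detected on no array, although the raw signal of Robo4 ran from 547.5 to 578.5 in SSA, against from 356.7 to 569.4 in sham. The summed signal of all 13 above background ran from 14921 to 17250 in SSA, against from 9637 to 15881 in sham. Flt3, Cd34 and Cd48 were listed as genes not of LT-HSC. Flt3 was detected on 1 array and not kept, while Cd34, detected on 6, and Cd48, detected on 5, were kept. Raw signals of Cd34 ran from 650.4 to 1068.7 in SSA, against from 487.1 to 960.2 in sham. Those of Cd48 ran from 148.3 to 169 in SSA, against from 145.9 to 157.2 in sham. Eosinophil genes stood lower in SSA in 4 of 4 kept members, with summed signals from 374 to 1207 in SSA, against from 2251 to 4431 in sham. Neutrophil and monocyte genes stood lower in 9 of 9, with sums from 2349 to 5913 in SSA, against from 4499 to 12059 in sham. Erythroid genes stood lower in 6 of 6 kept members. Sums over all 8 listed erythroid genes, kept or not, ran from 3769 to 7601 in SSA, against from 8047 to 8282 in sham. Kept B lineage genes stood higher in 3 of 3, T and NK genes in 1 of 2, megakaryocyte genes in 3 of 5 and basophil and mast cell genes in 1 of 3. Among the defining markers, Ms4a1, Cd3e, Cd3d, Cd3g and Ms4a2 were detected on no array. The part of these cells in the clock values was not tested, and in such bulk samples fewer cells of a type and less RNA per cell cannot be told apart.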

How the data were processed

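Illumina MouseWG-6 V2 BeadChips were read with GenomeStudio 1.8.0 without normalization, per the file headers. The deposited table holds linear intensity per gene name and array, so probes sharing a name had been combined, and a detection score, used as 1 minus a detection p. The score does not always follow the signal, as for Clock. The series matrix, deposited by the authors as intensity, equalled the raw signal minus 126.6 to 138.1 per array (within 0.1) and was an alternative; its medians per array were 5.7 to 7.2. Rows were named through the NCBI gene table of GRCm38.p6: 15991 matched a current symbol, 5826 an older one, 119 several and 8838 none.

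The background mean (126.1 to 137.7) and SD (7.41 to 8.86) of each array were read where the median detection score crosses 0.5, and 0.16 and 0.84. Signals were corrected by normexp with these values, given an offset of 16, quantile-normalised and put on the log2 scale, which understates changes of dim genes. The background fit of neqc, which gave means of 168 to 204.2 and SDs of 194.9 to 302.7, was an alternative. Where several rows named a gene, the one with the highest mean was used. SSA and sham arrays were compared with limma 3.58.1 in R 4.3.3 (lmFit and eBayes, two-sided, group as the only term), with Benjamini-Hochberg adjustment over all genes fitted. The fit was tested on simulated data. The number of arrays limits the precision. The named genes were all 10 clock genes, and partners and members of other lists at an unadjusted p under 0.05. Also named were the 5 nearest genes to the kept clock genes with the largest range and the smallest unadjusted p in the main fit. Nampt, Klf9 and further list members were named after their values were seen. Members, lists and settings were chosen with earlier results of these data known. A few genes that these rules name are not reported here.

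The deviations of same-numbered arrays correlated at 0.398 for replicate 1, but at -0.009 and -0.195 for replicates 2 and 3. Replicate numbers were therefore not used as pairs. No header names a slide, so no batch was tested. Alternatives changed the background, offset, normalisation, filter, row choice, weights, variance prior, replicate block and each array left out in turn.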

Additional observations from a re-analysis of the deposited data

How the results depend on the processing

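In all 19 alternatives the log2 fold change, SSA minus sham, kept its direction for Dbp (0.31 to 0.53), Per1 (-0.90 to -0.20), Per3 (-0.53 to -0.03) and Arntl (0.04 to 0.34), as it did for Nr1d1 (0.02 to 0.43) in 16 and Nr1d2 (0.04 to 0.53) in 17. The low ends of Per3, Arntl, Nr1d1 and Nr1d2 came with the background fit of neqc, as did those of Cry2 (-0.81 to -0.05 in 15), Bhlhe40 (0.27 to 1.06 in 19) and Nampt (0.03 to 0.38 in 18). Clock turned to -0.00083 with neqc and -0.0304 with a median shift per array, and ran from -0.16 to 0.27 with 1 array left out. Per2 turned to 0.0352 with array weights and ran from -0.156 to 0.0621 with 1 array left out. The cause of these turns was not tested.

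At an adjusted p under 0.05 in limma, 1 gene passed in the main setting, 0 with neqc, 0 with no filter on dim rows, 3 with a median shift, 4 with the replicate block, 0 to 4 with 1 array left out, and 1450 with array weights, which gave sham 3 a weight of 6.62 and the other arrays 0.318 to 1.69. With those weights Dbp and Per1 passed, at adjusted p of 0.0342 and 0.0470 in limma (over all alternatives 0.0342 to 0.989 and 0.0470 to 0.986), as did Cry2, Bhlhe40, Por and Klf9, and none of these passed in another alternative. Unadjusted p under 0.05 held for 915 genes in the main setting, 2058 with no filter, 531 with a median shift, 3587 with array weights and 441 to 1756 with 1 array left out. Of these, 56% were higher in SSA in the main setting and 26.6% with a median shift.

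Kept clock genes at an unadjusted p under 0.05 numbered 1 in the main setting, 0 with a median shift, 2 of 9 with no filter, 2 with array weights, 0 with the replicate block and 0 to 2 with 1 array left out. Their median log2 fold change ran from -0.156 to 0.0621 with 1 array left out. With the replicate number as a block, Dbp had an unadjusted p of 0.0574 in limma. The numbers do not pair the arrays by any label, and 2 of 6 arrays correlated best with their own number. Signals near background, as for Cry1 and Nr1d1, limit what can be read of dim genes.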
